A study of Mus musculus with 12 samples.

Results

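The genes of glycolysis and of the response to low oxygen were followed in mouse eye primordia at E10.5 (days of embryonic development). The set held 33 genes picked by name for these roles, with earlier results of these data known. Each was read from the probe with the highest mean raw intensity over all 12 arrays. A named probe was at hand for 30 of the 33, among 19057 genes named on the array, and no probe is named here for Hk2, Gpi1 or Eno1. Of the 30, 27 passed the detection filter and entered the tests with 11888 genes in all. The glycolytic aldolase Aldoc and the stress gene Ndrg1 were detected on 1 of 12 arrays each and the vasodilator gene Adm on 0, so they have no level here.

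A laser cut 2 tissues out of frozen sections: distal optic vesicle, which gives rise to the retina, and the overlying surface ectoderm, which gives rise to the lens. Embryos labelled Bmp4 KO had lost the secreted growth factor gene Bmp4 in the optic vesicle, and embryos labelled Bmp4 WT served as controls, all on a mixed C57BL6 and FVB background. The 4 groups of 3 arrays were KO optic vesicle, WT optic vesicle, KO surface ectoderm and WT surface ectoderm. RNA was pooled and amplified, and neither the Cre driver nor the alleles are given in the sources used here. Whether 3 arrays of one group stand for 3 embryos or for 1 pool measured again is not stated, so the p-values may reflect technical spread alone.

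Glycolysis splits glucose to pyruvate in the cytoplasm, and lactate dehydrogenase then turns pyruvate into lactate when respiration does not use it. Glucose enters cells through facilitative transporters, and the prolyl hydroxylases encoded by the Egln genes mark hypoxia-inducible factors (HIF) for breakdown when oxygen is present. When oxygen is low, HIF accumulates and switches on transporters, glycolytic enzymes, Vegfa for vessel growth, and Egln3 itself, and early embryonic eye tissue is supplied by vessels that grow in from the surrounding mesenchyme.

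Values are normalised log2 intensities, given as mean ± SD over 3 arrays. Each probe's value serves only for comparison with itself, since probes differ in brightness. Between 45.0% and 46.7% of probes were detected per array, and the median raw intensity ran from 85.7 to 123. Arrays of one group correlated across genes between 0.928 and 0.963. The deleted gene checked the labels in the vesicle, with Bmp4 at 4.27, 5.18 and 4.31 in KO optic vesicle and at 8.26, 8.30 and 8.22 in WT optic vesicle. That check is limited, since the position of the probe relative to the deletion was not checked. In surface ectoderm Bmp4 read 5.66, 4.56 and 4.53 in KO and 5.90, 6.09 and 6.08 in WT. The groups did not overlap, but the difference of -1.10 did not pass (limma adjusted p = 0.14). Of 6 lens markers tested, 6 were lower in WT optic vesicle than in WT surface ectoderm, as were 7 of 11 surface ectoderm markers. In KO surface ectoderm the lens markers Pitx3, Foxe3 and Cryaa were detected on 0 arrays, and of the retina markers Six6 was detected on 0 arrays in every group.

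Between KO and WT embryos 2 members differed in optic vesicle and 5 in surface ectoderm. In optic vesicle 2 of the 27 tested members rose and 25 did not pass, against 1.84% of all tested genes that passed in either direction and 1.07% that rose. In surface ectoderm 5 of 27 passed, against 4.95% of all tested genes. Of these 1 was higher and 4 were lower, against 2.56% of all tested genes higher and 2.39% lower. Since the members were chosen with earlier results known, the shares here and below describe the set and do not test it. The glucose transporter gene Slc2a3 rose in both tissues, while Slc2a1, Egln3, Vegfa and Ddit4 fell in surface ectoderm. All tests were limma fits over all 12 arrays with Benjamini-Hochberg adjustment over all 11888 genes and a threshold of 0.05. The median log2 difference over the members was 0.11 in optic vesicle, against -0.02 over all tested genes, and -0.10 in surface ectoderm, against 0.02. In tissue taken in bulk, fewer cells of a type and less RNA per cell cannot be told apart.

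**Figure D1:**
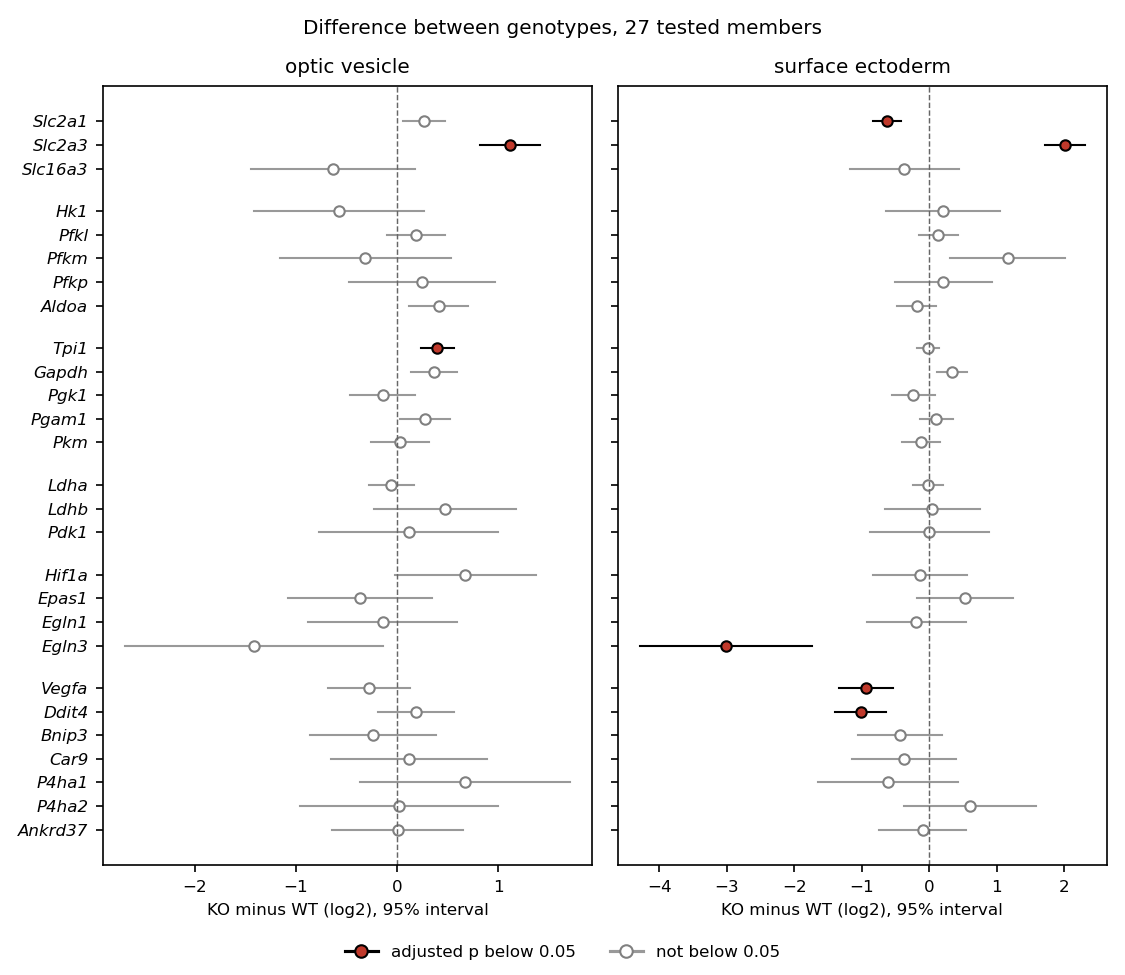
Log2 difference of KO minus WT (x axis) with its 95% interval for the 27 tested members in optic vesicle (left) and surface ectoderm (right), grouped from top to bottom as transporters, upper glycolysis, lower glycolysis, lactate and pyruvate, oxygen sensing and hypoxia-induced genes; filled points passed adjusted p below 0.05. Slc2a3 lies to the right in both panels, at 1.11 and 2.01, and Egln3 lies farthest left in both, at -1.41 and -3.02, filled in surface ectoderm only.

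Markers of other cell types moved in the same samples. In surface ectoderm 4 of 7 endothelial markers were higher in KO, and their summed intensity ran from 648 to 699 in KO and from 177 to 271 in WT, with Tek and Tie1 detected on 0 KO arrays. Of 9 mesenchyme markers 5 were higher and 1 lower, with sums of 3790 to 3830 in KO and 1940 to 2070 in WT. Of 6 erythroid markers 1 was higher, with sums of 11200 to 12400 in KO and 9860 to 10500 in WT. All 6 lens markers were lower, with sums of 608 to 677 in KO and 4010 to 4820 in WT. In optic vesicle 4 of 6 erythroid markers were higher in KO, with sums of 4790 to 5090 in KO and 2040 to 2150 in WT, while 0 of 7 endothelial markers passed, with sums of 326 to 385 in KO and 245 to 287 in WT. Of 9 mesenchyme markers 2 were higher there and 7 did not pass, with sums over the 9 of 867 to 1060 in KO and 304 to 422 in WT. Pigment epithelium markers were higher in KO in both tissues, 5 of 7 in each, with sums of 5600 to 5930 in KO and 1630 to 1860 in WT optic vesicle and of 2330 to 2660 in KO and 841 to 1320 in WT surface ectoderm. Tyr was detected on 0 arrays in 3 groups, all but KO optic vesicle, and Tyrp1 on 0 arrays of either ectoderm group. Of 7 retina markers 3 were lower in KO in each tissue. The 7 summed to 4280 to 5120 in KO and 7100 to 8190 in WT optic vesicle. In surface ectoderm they summed to 3120 to 3870 in KO and 6360 to 7500 in WT. The 3 lower there were Sox2, Pax6 and Sfrp2. Of the 4 that did not pass there, Rax and Lhx2 lay higher on every KO array, by 1.39 and 1.42 (limma adjusted p = 0.090 and 0.065). Six3 and Fgf15 differed by -0.73 and -0.25. Between the WT tissues Rax and Lhx2 were higher in vesicle, by 3.94 and 3.63, while Pax6 differed by -0.54. Of 11 surface ectoderm markers 4 were higher in KO surface ectoderm, with sums of 7890 to 10000 in KO and 8340 to 9980 in WT. In optic vesicle 1 of the 11 was higher, with sums of 1120 to 1320 in KO and 543 to 681 in WT, and 1 of 6 lens markers was lower, with sums of 491 to 708 in KO and 896 to 1110 in WT. Of 4 macrophage markers 0 passed in either tissue. The part of these cell types in the differences of Slc2a3, Slc2a1, Egln3, Vegfa, Ddit4 and Tpi1 was not tested.

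Slc2a3 encodes a high-affinity glucose transporter (GLUT3). Its probe read 9.79, 9.89 and 9.91 on the KO optic vesicle arrays and 8.74, 8.75 and 8.75 on the WT optic vesicle arrays. It read 11.76, 11.55 and 11.82 in KO surface ectoderm and 9.54, 9.58 and 9.98 in WT surface ectoderm. Every KO array lay above every WT array of its tissue, and the WT vesicle arrays lay closest together. The log2 difference was 1.11 ± 0.14 (SE) in optic vesicle (2.17-fold, limma adjusted p = 0.00037) and 2.01 ± 0.14 in surface ectoderm (4.02-fold, limma adjusted p = 1.4e-06). By p the ectoderm difference ranked 5 among all 11888 genes. The arrays lay on 2 slides, and on each slide alone the difference was 1.14 and 1.10 in optic vesicle and 2.23 and 1.57 in surface ectoderm.

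The rise of Slc2a3 was smaller in optic vesicle than in surface ectoderm, by -0.89 ± 0.20 on the log2 scale (limma adjusted p = 0.034 for the difference between the tissues). That test compared the KO minus WT differences themselves, and 3 of 27 members passed it, against 1.42% of all tested genes. For Slc2a3 this call was lost on leaving out any of 10 of the 12 arrays (limma adjusted p = 0.068 to 0.089 in those fits); it held without replicate 2 of KO surface ectoderm and without replicate 3 of WT surface ectoderm. With the replicate number as a block it did not pass either (limma adjusted p = 0.10). Nor did it pass with arrays scaled to one median in place of quantiles, or without the detection filter. The rise in each tissue itself passed in all 6 fits that left out an array of that tissue.

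Slc2a1 encodes the glucose transporter GLUT1, which supplies most embryonic tissues. It read 11.33, 11.81 and 11.55 in KO surface ectoderm and 12.12, 12.23 and 12.21 in WT surface ectoderm. All 3 KO arrays lay below the WT arrays, and replicate 2 of the KO group came nearest to them. The log2 difference was -0.62 ± 0.10 (SE), a 1.54-fold lower level in KO ectoderm (limma adjusted p = 0.0015), with -0.73 on slide 1 and -0.40 on slide 2. In optic vesicle the same probe read 12.09, 12.04 and 12.06 in KO and 11.75, 11.84 and 11.80 in WT. There the KO arrays lay above the WT arrays, but the difference of 0.27 did not pass (limma adjusted p = 0.25). The 2 genotype differences differed by 0.89 ± 0.14 (limma adjusted p = 0.0042), a call kept in all 12 fits that left out 1 array but not with arrays scaled to one median in place of quantiles (adjusted p = 0.22). Under that scaling the fall in ectoderm was -0.57 and did not pass either (adjusted p = 0.15).

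The third transporter, Slc16a3, exports lactate (MCT4). It averaged 6.96 ± 0.43 in KO and 7.59 ± 0.33 in WT optic vesicle, and 7.75 ± 0.75 in KO and 8.13 ± 0.27 in WT surface ectoderm (n = 3 each). Neither log2 difference, -0.63 or -0.37, passed (limma adjusted p = 0.57 and 0.68).

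**Figure D2:**
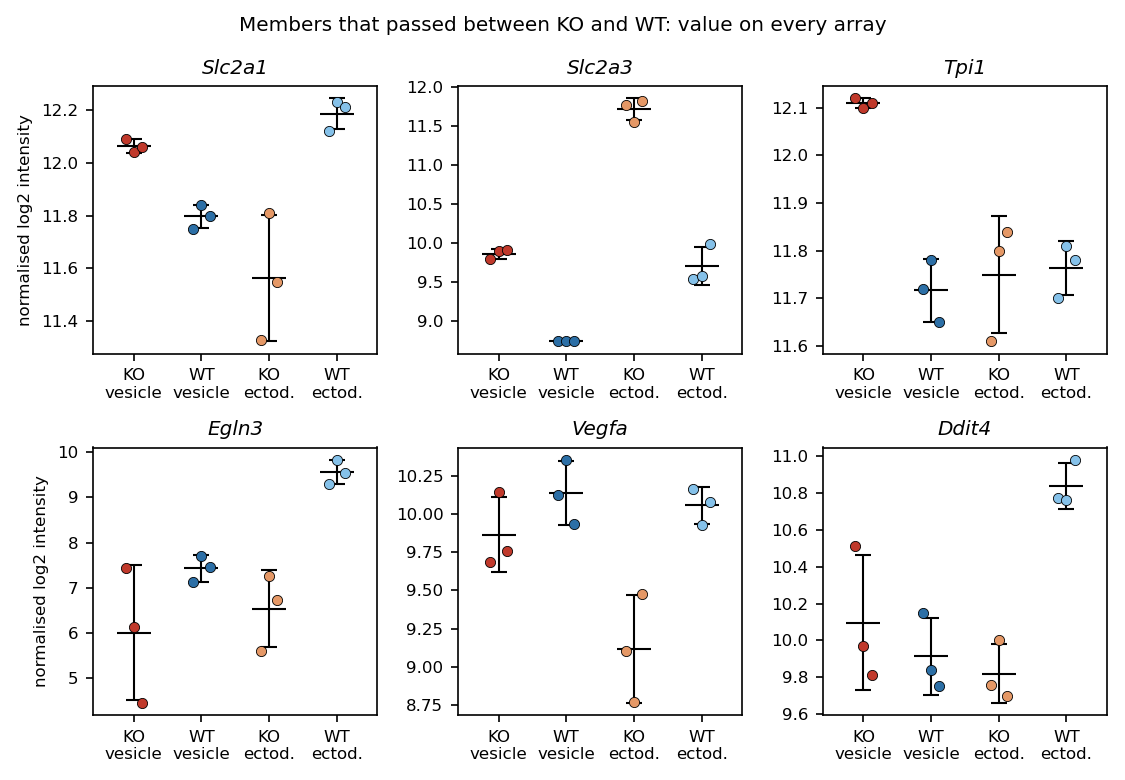
Normalised log2 intensity (y axis, a separate scale for each gene) on every array for the 6 members that passed a test between KO and WT; points are arrays, horizontal bars the mean of 3 and whiskers 1 SD, and ectod. stands for surface ectoderm. The KO points of Slc2a3 lie above the WT points in both tissues, and those of Slc2a1 lie above WT in vesicle and below WT in ectoderm.

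Among the enzymes of glycolysis only Tpi1 passed a genotype test. Tpi1, triosephosphate isomerase, interconverts the triose phosphates that aldolase makes. It read 12.12, 12.10 and 12.11 in KO optic vesicle and 11.72, 11.78 and 11.65 in WT optic vesicle. The groups did not overlap, and the KO arrays spanned less than the WT arrays. The log2 difference was 0.40 ± 0.08 (SE, 1.32-fold, limma adjusted p = 0.013). This call was lost without replicate 1 or 3 of KO optic vesicle (adjusted p = 0.053 and 0.052) and without replicate 1 or 3 of WT optic vesicle (adjusted p = 0.050 and 0.070), while the difference stayed between 0.36 and 0.40. A second bright probe of Tpi1 averaged 11.91 ± 0.08 in KO and 11.80 ± 0.02 in WT optic vesicle, and its difference of 0.11 did not pass (limma adjusted p = 0.75 over all 24978 probes detected). In surface ectoderm the first probe read 11.61, 11.80 and 11.84 in KO and 11.70, 11.81 and 11.78 in WT. Those groups overlapped, with a difference of -0.02.

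The enzymes upstream of Tpi1 gave no genotype call in either tissue. Hexokinase Hk1, which traps glucose in the cell, was detected on 8 of 12 arrays and the phosphofructokinase Pfkp on 7 of 12. Pfkl, another phosphofructokinase, averaged 10.90 ± 0.13 in KO and 10.71 ± 0.12 in WT optic vesicle and 10.91 ± 0.20 in KO and 10.78 ± 0.22 in WT surface ectoderm (n = 3 each). The muscle-type enzyme gene Pfkm read 7.63, 7.48 and 8.97 in KO surface ectoderm and 6.48, 7.06 and 7.05 in WT surface ectoderm. Replicate 3 of KO stood far above the other 2 KO arrays, the groups did not overlap, and the difference of 1.16 ± 0.40 fell short of the threshold (limma adjusted p = 0.12). Its next brightest probe gave 0.39 (limma adjusted p = 0.74). Aldoa, the aldolase that splits fructose bisphosphate, read 10.78, 10.94 and 10.93 in KO optic vesicle and 10.31, 10.49 and 10.62 in WT optic vesicle. The KO arrays were all higher, yet the difference of 0.41 did not pass (limma adjusted p = 0.20).

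Below Tpi1, Gapdh, which feeds the payoff phase and is often taken as a constant reference gene, averaged 11.67 ± 0.02 in KO and 11.31 ± 0.20 in WT optic vesicle, and 11.72 ± 0.16 in KO and 11.38 ± 0.08 in WT surface ectoderm (n = 3 each). In both tissues its KO arrays lay above the WT arrays, by 0.37 (limma adjusted p = 0.12) and 0.34 (adjusted p = 0.090). Pgam1, a mutase of the same stretch, differed by 0.27 in optic vesicle (limma adjusted p = 0.34) and by 0.10 in surface ectoderm. Pgk1, which makes ATP in this stretch, differed by -0.14 and -0.24, and pyruvate kinase Pkm by 0.03 and -0.13. None of these passed in either tissue. In optic vesicle 7 members had all KO arrays above all WT arrays, namely Slc2a1, Slc2a3, Aldoa, Tpi1, Gapdh, Pgam1 and Hif1a, against 9.45% of all tested genes, and 0 members had them all below, against 11.8%.

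Genes for the fate of pyruvate gave no genotype call. Ldha, the lactate dehydrogenase subunit that HIF induces, read 11.30, 11.22 and 11.14 in KO optic vesicle and 11.12, 11.36 and 11.34 in WT optic vesicle. The groups overlapped, and the log2 difference was -0.06 with a 95% interval of -0.28 to 0.17. In surface ectoderm it was -0.02, between -0.25 and 0.20. Pdk1, a kinase that inhibits pyruvate dehydrogenase, differed by 0.11 (-0.77 to 1.00) in optic vesicle, a much wider interval than that of Ldha.

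Oxygen sensing genes changed at 1 member, Egln3, and only its surface ectoderm difference passed. Egln3 encodes a prolyl hydroxylase that is itself a HIF target. It read 5.61, 7.27 and 6.73 in KO surface ectoderm and 9.30, 9.83 and 9.53 in WT surface ectoderm. All KO arrays lay far below the WT arrays, with replicate 1 the lowest. The log2 difference was -3.02 ± 0.59 (SE, 8.09-fold lower, limma adjusted p = 0.0081), the largest in size among the 27 members, with -3.40 on slide 1 and -2.26 on slide 2. A dimmer second probe, detected on 8 of 12 arrays, averaged 5.85 ± 0.75 in KO and 6.04 ± 1.05 in WT surface ectoderm, a difference of -0.19 (limma adjusted p = 0.92).

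In optic vesicle Egln3 read 7.44, 6.14 and 4.46 in KO and 7.12, 7.70 and 7.47 in WT. Replicate 1 of KO lay within the WT range, replicate 3 was not detected, and the difference of -1.41 ± 0.59 did not pass (limma adjusted p = 0.33). The difference between the tissues, 1.60, did not pass either (adjusted p = 0.46), so the fall in ectoderm is not shown to differ from the vesicle value. The other Egln gene among the members, Egln1, differed by -0.14 in optic vesicle and -0.19 in surface ectoderm. Its 3 KO ectoderm arrays, at 6.54, 6.51 and 6.43, lay just below the WT arrays at 6.66, 6.79 and 6.60. Egln2, which is not a member, differed by 0.10 in optic vesicle and by -1.12 in surface ectoderm. Neither difference of Egln2 passed (limma adjusted p = 0.97 and 0.13), though its KO ectoderm arrays all lay below the WT arrays.

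Hif1a, the oxygen-regulated HIF subunit, read 7.77, 7.99 and 8.44 in KO optic vesicle and 7.76, 7.21 and 7.21 in WT optic vesicle. The lowest KO array and the highest WT array nearly met, and the difference of 0.67 fell short (limma adjusted p = 0.43). Another Hif1a probe gave 0.17 (limma adjusted p = 0.95). The related subunit Epas1 was detected on 5 of 12 arrays and differed by -0.37 in optic vesicle and 0.53 in surface ectoderm, without passing. HIF activity is set mainly by protein stability, which these RNA values do not measure.

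Of the 7 tested hypoxia-induced members, Vegfa and Ddit4 fell in surface ectoderm and none passed in optic vesicle. Vegfa, the main growth factor for vessels, read 9.10, 8.77 and 9.48 in KO surface ectoderm and 10.17, 9.93 and 10.08 in WT surface ectoderm. The groups did not overlap, and the KO arrays varied more. The log2 difference was -0.94 ± 0.19 (SE, 1.92-fold lower, limma adjusted p = 0.0093), but with only the ectoderm arrays in the fit the adjusted p was 0.051, and with median scaling 0.068. In optic vesicle Vegfa read 9.69, 10.15 and 9.76 in KO and 10.13, 10.36 and 9.94 in WT, groups that overlapped, with a difference of -0.28 (limma adjusted p = 0.64). The dimmer second Vegfa probe gave -0.58 in surface ectoderm (limma adjusted p = 0.56) and 0.88 in optic vesicle (adjusted p = 0.48). The difference between the tissues on the first probe was 0.66 and did not pass (adjusted p = 0.29).

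Ddit4 encodes a stress-induced inhibitor of mTORC1 signalling (REDD1). It read 9.76, 10.00 and 9.70 in KO surface ectoderm and 10.77, 10.76 and 10.98 in WT surface ectoderm. The KO arrays lay well below the WT arrays, and the spread within each group was small. The log2 difference was -1.02 ± 0.18 (SE, 2.02-fold lower, limma adjusted p = 0.0031), with -1.04 and -0.98 on the 2 slides. In optic vesicle it read 10.51, 9.97 and 9.81 in KO and 10.15, 9.84 and 9.75 in WT, overlapping groups with a difference of 0.18 (limma adjusted p = 0.78). The 2 differences differed by 1.20 ± 0.25 (limma adjusted p = 0.025). That call was lost on leaving out replicate 2 or 3 of WT optic vesicle or replicate 1 or 3 of KO surface ectoderm. It was also lost without replicate 3 of WT surface ectoderm (limma adjusted p = 0.052 to 0.079 over these fits). A replicate block (limma adjusted p = 0.064) or arrays scaled to one median in place of quantiles ended it too.

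The other hypoxia-induced members gave no genotype call. The mitophagy receptor Bnip3 was detected on 4 of 12 arrays and the carbonic anhydrase Car9 on 5 of 12. Ankrd37, an ankyrin repeat gene known as a HIF target, averaged 8.74 ± 0.56 in KO and 8.74 ± 0.13 in WT optic vesicle and 8.48 ± 0.15 in KO and 8.58 ± 0.58 in WT surface ectoderm (n = 3 each). The collagen prolyl hydroxylases P4ha1 and P4ha2 differed by 0.67 and 0.02 in optic vesicle and by -0.62 and 0.60 in surface ectoderm. None of these 4 differences passed, and the direction differed between the 2 enzymes in surface ectoderm.

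The brightest members were measured most precisely. The 11 members with a mean level of at least 10 had a median residual SD of 0.14, the 10 between 6 and 10 had 0.46, and the 6 below 6 had 0.45. Over the 27 members the median 95% interval of a genotype difference reached 0.65 to either side. Small changes of the 16 members below 10 were not detectable in general with 3 arrays a group, and the 6 dimmest were Hk1, Pfkp, Ldhb, Epas1, Bnip3 and Car9.

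Promoters of the 4 members that fell in surface ectoderm are printed to show whether they hold the core letters of the element that HIF is known to bind, ACGTG or GCGTG. The sequences are RefSeq entries of build GRCm38.p6, from 250 bases before to 50 bases after the most upstream annotated start, 5′ to 3′ along the gene, and capitals mark the matches on either strand.
Slc2a1 chr4:119108495-119108794 (plus strand): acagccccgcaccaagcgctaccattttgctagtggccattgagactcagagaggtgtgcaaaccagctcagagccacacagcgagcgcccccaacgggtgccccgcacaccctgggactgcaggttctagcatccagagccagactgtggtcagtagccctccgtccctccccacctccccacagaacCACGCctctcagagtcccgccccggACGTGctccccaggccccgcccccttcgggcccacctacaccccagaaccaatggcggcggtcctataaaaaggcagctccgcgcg
Egln3 chr12:54203825-54204124 (minus strand): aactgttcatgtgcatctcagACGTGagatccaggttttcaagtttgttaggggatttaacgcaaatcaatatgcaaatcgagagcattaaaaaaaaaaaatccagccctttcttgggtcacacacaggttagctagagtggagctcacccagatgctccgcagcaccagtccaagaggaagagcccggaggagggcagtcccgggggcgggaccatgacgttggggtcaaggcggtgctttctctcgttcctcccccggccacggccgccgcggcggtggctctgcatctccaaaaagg
Ddit4 chr10:59951721-59952020 (minus strand): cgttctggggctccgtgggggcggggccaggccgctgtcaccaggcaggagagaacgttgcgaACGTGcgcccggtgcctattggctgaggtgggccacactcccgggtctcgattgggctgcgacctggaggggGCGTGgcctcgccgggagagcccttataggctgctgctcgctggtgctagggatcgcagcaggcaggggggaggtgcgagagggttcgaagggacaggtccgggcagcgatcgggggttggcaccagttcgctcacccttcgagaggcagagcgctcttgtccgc
Vegfa chr17:46032328-46032627 (minus strand): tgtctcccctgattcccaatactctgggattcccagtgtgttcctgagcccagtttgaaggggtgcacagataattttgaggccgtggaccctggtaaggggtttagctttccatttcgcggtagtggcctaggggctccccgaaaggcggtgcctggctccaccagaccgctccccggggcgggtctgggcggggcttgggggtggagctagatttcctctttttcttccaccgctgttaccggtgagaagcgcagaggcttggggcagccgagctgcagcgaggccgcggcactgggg

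Slc2a1 held ACGTG at position -36 from the start and GCGTG at -61 on the other strand, where it is printed as CACGC. Egln3 held ACGTG at -229, and Ddit4 held ACGTG at -187 and GCGTG at -115. The Vegfa window held 0 matches, which says only that these letters are not in this window. Of the 33 members 30 had an entry, and Slc2a3, Epas1 and Ndrg1 had none. ACGTG or GCGTG stood in 24 of the 30 (80%), in 62.3% of the 9588 tested genes with an entry and in 43.8% of all 27025 promoters of that length. ACGTG alone stood in 60% of the members' windows, in 25.5% of those of tested genes and in 19.6% of all. GCGTG stood in 56.7% of the members' windows, in 50.6% of those of tested genes and in 32.5% of all. ACGTG cannot overlap itself, while GCGTG can, since it begins and ends with the same base. CACGTG counts as ACGTG on both strands. Members with no genotype call held the letters too, with 5 ACGTG matches for Ldha and 3 for Hif1a.

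Between the tissues of WT embryos, 4 of 27 members passed and all 4 were lower in optic vesicle than in surface ectoderm, against 8.36% of all tested genes in either direction and 4.3% lower in vesicle. Slc2a3 was lower by 0.95 on the log2 scale (1.93-fold, limma adjusted p = 0.00042) and Ddit4 by 0.93 (1.90-fold, adjusted p = 0.0034), with no overlap of the arrays given above. Slc2a1 differed by -0.38 (limma adjusted p = 0.023), a call lost without any 1 of the WT vesicle arrays or without replicate 2 or 3 of WT ectoderm (adjusted p = 0.054 to 0.087). Egln3 differed by -2.12 (limma adjusted p = 0.040), and this call was lost in each of the 6 fits that left out 1 array (adjusted p = 0.075 to 0.13). Vegfa gave no call between the WT tissues, with a difference of 0.09 and a 95% interval of -0.32 to 0.49.

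In KO embryos 6 of 27 members differed between the tissues, 5 higher and 1 lower in optic vesicle, against 7.65% of all tested genes in either direction, 3.5% higher and 4.16% lower. Slc2a3 was lower in KO optic vesicle by 1.84 on the log2 scale (3.59-fold, limma adjusted p = 1.6e-06). Slc2a1, lower in the vesicle of WT embryos, was higher there in KO embryos, by 0.51 (1.42-fold, limma adjusted p = 0.0043). With arrays scaled to one median in place of quantiles, neither of these Slc2a1 calls passed. The limma adjusted p was then 0.65 in WT and 0.052 in KO embryos. Tpi1 was higher by 0.36 (limma adjusted p = 0.0075), and its second bright probe gave 0.34 (adjusted p = 0.030).

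Aldoa read 10.78, 10.94 and 10.93 in KO optic vesicle and 10.36, 10.48 and 10.05 in KO surface ectoderm, a difference of 0.59 (limma adjusted p = 0.016) with no overlap. The call was lost without replicate 2 or 3 of KO vesicle or replicate 3 of KO ectoderm (adjusted p = 0.062 to 0.065). In WT embryos the same probe read 10.31, 10.49 and 10.62 in optic vesicle and 10.27, 10.58 and 10.60 in surface ectoderm. Those arrays overlapped fully, with a difference of -0.01. Vegfa was 0.75 higher in KO vesicle (limma adjusted p = 0.024), a call lost without replicate 2 of KO vesicle or replicate 1 or 2 of KO ectoderm (adjusted p = 0.060 to 0.11), and with the replicate block (adjusted p = 0.069). Pgk1 was 0.56 higher (limma adjusted p = 0.032) and lost its call on leaving out any KO vesicle array or replicate 2 or 3 of KO ectoderm (adjusted p = 0.052 to 0.11), and with the block (adjusted p = 0.079). The second probes of Vegfa and Pgk1 gave 0.50 and 0.51 between the KO tissues and did not pass (limma adjusted p = 0.60 and 0.50). Each tissue comparison shares its arrays with the genotype comparisons, so these calls are not independent of them.

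**Figure D3:**
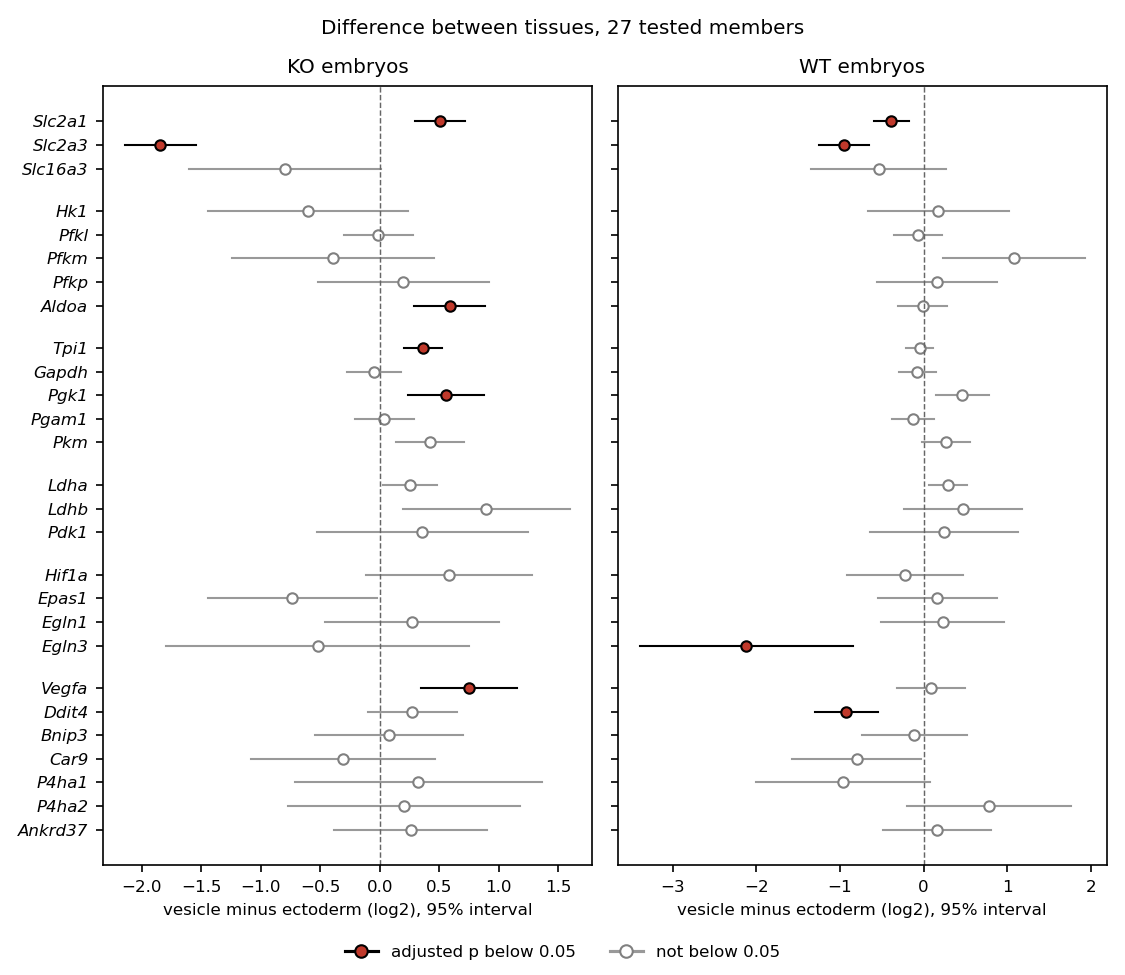
Log2 difference of optic vesicle minus surface ectoderm (x axis) with its 95% interval for the 27 tested members in KO embryos (left) and WT embryos (right), in the same order of groups as the genotype plot; filled points passed adjusted p below 0.05. Slc2a3 lies left of 0 in both panels, at -1.84 and -0.95, while Slc2a1 lies right of 0 in KO embryos, at 0.51, and left in WT embryos, at -0.38.

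Other genes of the same pathways are set against all tested genes, of which 1.84% passed in optic vesicle and 4.95% in surface ectoderm. Of 17 further glycolysis, lactate and pyruvate genes tested, 0 passed in optic vesicle (median log2 difference 0.17) and 0 in surface ectoderm (0.08). Of 29 further regulators and targets of the hypoxia response, Cited2 passed in optic vesicle (median over the list 0.10) and Rora in surface ectoderm (median -0.08). Cited2, a HIF-induced competitor for the coactivator p300, read 10.09, 10.09 and 9.99 in KO and 9.39, 9.57 and 9.51 in WT optic vesicle, a rise of 0.57 (limma adjusted p = 0.033). The nuclear receptor gene Rora read 5.58, 5.38 and 5.80 in KO and 8.37, 7.75 and 8.10 in WT surface ectoderm, a fall with a log2 difference of -2.49 (limma adjusted p = 0.0029). In each case all KO arrays lay to one side of all WT arrays.

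Of 29 genes of the citrate cycle and respiration, 1 rose in each tissue and 0 fell, against the same shares of all tested genes, 1.84% in optic vesicle and 4.95% in surface ectoderm. In optic vesicle it was Ppargc1a, a coactivator of mitochondrial genes, with a log2 difference of 1.82 (limma adjusted p = 0.029), and in surface ectoderm Idh3b, a subunit of isocitrate dehydrogenase, with 0.87 (adjusted p = 0.025). Of 5 genes of the VEGF family and its receptors tested, the ligand genes Vegfb and Vegfc, the receptor gene Kdr and the coreceptor genes Nrp1 and Nrp2, 0 passed in optic vesicle. In surface ectoderm the coreceptor gene Nrp1 rose, at 6.21, 6.22 and 6.37 in KO and detected on 0 of the WT arrays, a level at least 2.85-fold higher (limma adjusted p = 0.00013). This bound sets the KO mean against, per WT array, the higher of the probe's own value and the lowest signal of any detected probe. Vegfa fell and this coreceptor gene rose in the same ectoderm samples.

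**Figure D4:**
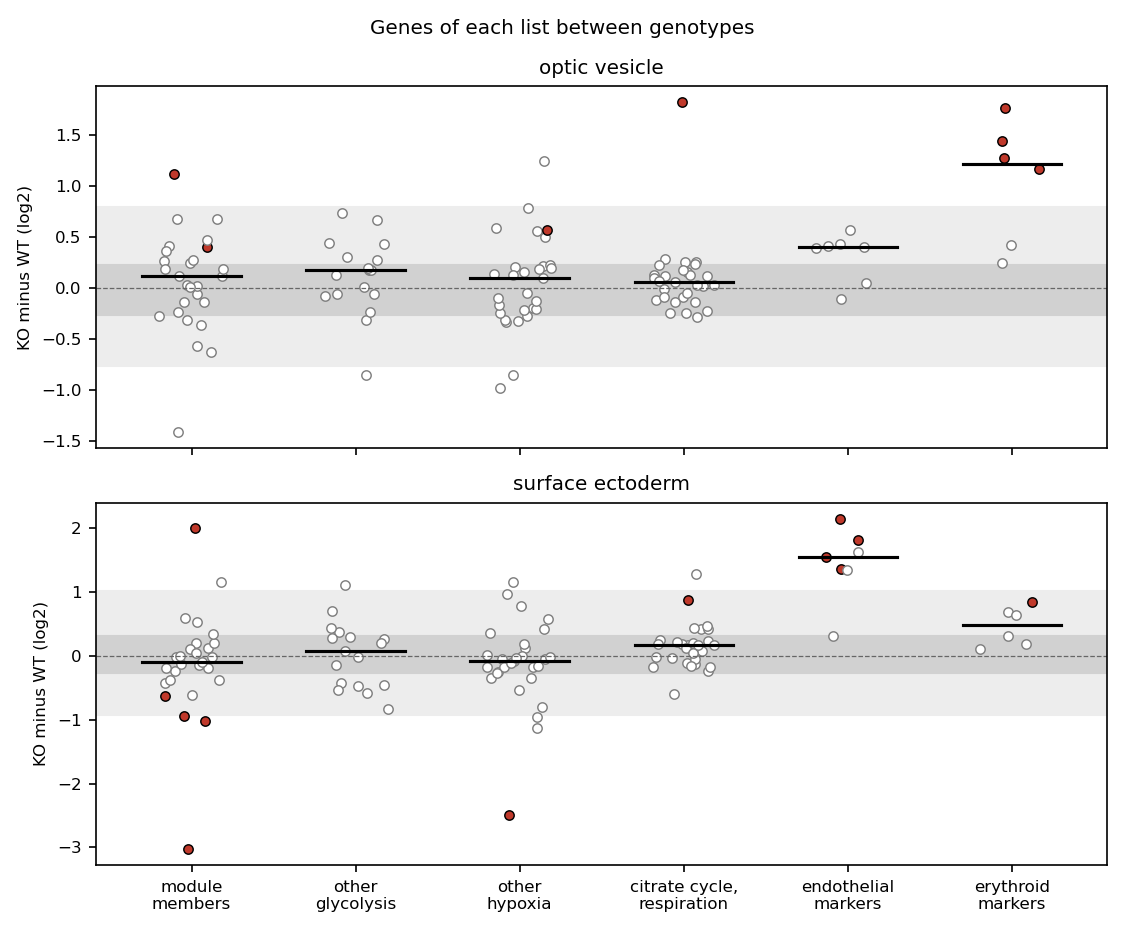
Log2 difference of KO minus WT (y axis) for every tested gene of the module and of 5 other lists (x axis) in optic vesicle (top) and surface ectoderm (bottom); filled points passed adjusted p below 0.05, horizontal bars are list medians, and the dark and light bands hold the middle 50% and 90% of all tested genes. Most module members lie within the light band, and 4 of 6 erythroid markers in vesicle and 6 of 7 endothelial markers in ectoderm lie above it.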

How the data were processed

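Illumina bead arrays of 12 samples were used, 3 per group. Per the file headers, the deposited scanner table gives for each probe the mean bead intensity, its bead standard error (also intensity), the number of beads and a detection p-value, without background subtraction or normalisation between arrays. GenomeStudio is named in the submitters' processing notes, its version not given. The authors also deposited a table of processed intensity values whose options are not stated, used here as an alternative and floored at 16. Intensities were background-corrected, quantile-normalised and put on the log2 scale in R 4.3.3 by limma 3.58.1 (neqc, offset 16). Platform annotation gave 1 symbol to 34885 of 45281 probes, several to 18 and none to 10378, and 34807 symbols had an Entrez match in RefSeq. A gene was tested where its brightest probe had a detection p below 0.05 on at least 3 of 12 arrays. The median number of beads behind a value was 42, and the number of arrays limits precision.

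One limma model (lmFit, eBayes with trend, no block, two-sided) covered all comparisons. An exact permutation test of 3 against 3 arrays cannot go below 0.10 and was not used. Same-numbered arrays of different groups had residual correlations of -0.04 to 0.02. Arrays with different numbers were not compared, so this does not settle whether the numbers pair the arrays. The pipeline was tested on simulated data. Alternatives were other normalisations, detection filters, slide or replicate blocks, array weights, fits on fewer arrays, single slides and second probes. Each slide held arrays of all 4 groups. The members and lists were chosen with earlier results of these data known. By the naming rule, array values are given for members that passed between genotypes or had 1 of the 4 lowest p in a tissue comparison, and up to 4 passing genes are named from each other list. Array values of Pfkm, Ldha, Egln1 and Hif1a were added after their values were seen. The differences of Egln2, Rax, Lhx2, Six3 and Fgf15 that did not pass were added in the same way.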

Additional observations from a re-analysis of the deposited data

Results flagged for a closer look

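The KO minus WT difference in optic vesicle and that in surface ectoderm differed by limma's interaction test for 3 members. Ddit4 had 0.18 in optic vesicle and -1.02 in surface ectoderm, a gap of 1.20 (adjusted p = 0.025). Slc2a1 had 0.27 and -0.62, a gap of 0.89 (adjusted p = 0.0042). Slc2a3 had 1.11 and 2.01, a gap of -0.89 (adjusted p = 0.034), so it rose in both tissues. The gap of Slc2a3 fell short of the threshold in 13 alternative runs, that of Ddit4 in 7 and that of Slc2a1 in 1. With arrays scaled to one median in place of quantiles, 0 of the 3 passed.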

How the results depend on the processing

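Of the 20 member differences that passed, 0 changed direction under any alternative run, and 16 fell short of the threshold under at least 1. The members called under the standard settings numbered 2 in optic vesicle, 5 in surface ectoderm, 3 for the difference between the tissues, 4 between WT tissues and 6 between KO tissues. Scaling arrays to one median in place of quantiles left 1, 3, 0, 2 and 1, and over all genes 68.7% of optic vesicle calls were then higher, against 58.0%. The second brightest probe of 15 members gave 0, 0, 0, 0 and 1. Slc2a1, Slc2a3, Ddit4 and Aldoa have 1 named probe each, so that run held no value for them. Their calls rest on 1 probe and could not be checked in this way. A replicate block left 1 call for the difference between the tissues, that of Slc2a1, and ended the calls of Egln3 between WT tissues (adjusted p = 0.069) and of Vegfa and Pgk1 between KO tissues. It changed no genotype call within a tissue. With the arrays of 1 slide alone, Slc2a3 gave the 1 call left in surface ectoderm on slide 1 and in optic vesicle on slide 2; the other slide of each comparison held 1 array a group and allowed no test. Leaving out 1 array gave 1 to 2, 5 to 5, 1 to 3, 2 to 3 and 3 to 6 calls. Over all genes, the 219 calls in optic vesicle became 415 with array weights, 131 with median scaling, 65 on slide 2 and as few as 127 without 1 array. The 588 in surface ectoderm became 342, 315, 19 on slide 1 and 378, and 240 with the ectoderm arrays alone. The 169 for the difference between the tissues became 97 with median scaling, 89 with the block and as few as 96 without 1 array, and the 994 between WT tissues as few as 615. The cause was not tested in any of these cases. The wider spread below a level of 10 limits what can be seen for 16 members, 6 of them near background.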
